A study of Mus musculus with 18 samples.

Results

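Muscle of mice with orthotopic KPC tumours was compared with muscle of mice that had received Matrigel alone. The members of the comparison are 4 of the 18 RNA-seq libraries of the series, chosen by their titles: 2 from mice injected with 50000 KPC cells and 2 from Matrigel controls. KPC is the usual name of a mouse pancreatic carcinoma line, and Matrigel is a basement membrane gel in which cells are injected. All 4 libraries came from the tibialis anterior (TA), a fast limb muscle, of mice on the C57BL/6 background. The labels describe the controls as Matrigel only for the orthotopic model, and the muscles of tumour-bearing mice were taken at endpoint. Age, sex and the organ that received the cells are not named in the labels. The libraries of a group are called biological replicates, and the labels do not name the animals. The other 14 libraries served as points of reference. They came from mice with 1000 KPCML1 cells placed orthotopically (C57BL/6, the same Matrigel controls), from mice with LLC cells in muscle (C57BL/6) or C26 cells under the skin (CD2F1), from the tamoxifen-induced genetic model KPP (C57BL/6), and from the controls of the last 3.

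Cancer cachexia is the loss of muscle and fat in the presence of a tumour. In muscle it is known for the ubiquitin ligases MuRF1 and atrogin-1, which mark proteins for the proteasome and are induced when FoxO factors enter the nucleus or when glucocorticoids and inflammatory cytokines act on the fibre. Autophagy, a switch of fuel from glucose to fatty acids and a decrease of matrix synthesis are other known features of wasting muscle.

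The 4 libraries held 30956375 to 36469537 fragments assigned to genes. Levels are given as CPM, counts scaled to the library size after TMM normalisation, always in the order of replicate 1 and replicate 2. Of 29433 genes with a count in any library, 16089 were kept by edgeR's filter on low counts, and edgeR's quasi-likelihood method tested them in 1 model of all 18 libraries. Differences are log2 fold changes with their standard error, and a gene was called when its p adjusted over all tested genes was under 0.05. Myh4, the main fast myosin of limb muscle, stood at 49770 and 30090 CPM in the controls and 50290 and 62900 CPM in the KPC libraries, and the epithelial marker Epcam at 0.0324 and 0.0682 CPM in the controls and 0 and 0.0355 CPM in the KPC libraries. Transcripts of the mitochondrial genome took 17.6 and 20.2% of fragments in the controls and 13.7 and 15.3% in the KPC libraries. On the first principal component of all 18 libraries (31.2% of the variance) the controls lay at -46.1 and -49.0 and the KPC libraries at 55.3 and 69.2. Libraries of a group correlated across genes at 0.983 in the controls and 0.972 in KPC, where genes are not independent replicates.

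In total 4674 of 16089 genes were called between KPC and Matrigel (29.1%), 2465 higher (15.3%) and 2209 lower (13.7%), with a median log2 fold change of -0.01 over all tested genes. In 4663 of the called genes the groups did not overlap, and over all tested genes both KPC libraries lay above both controls in 31.4% and below them in 34.0%. The change exceeded 2-fold in 1315 genes upwards and 1503 downwards. Replicate 2 of KPC was the more extreme library: of the 2465 higher genes it exceeded replicate 1 in 1750 and was more than 2-fold above it in 319. Leaving out Matrigel replicate 1, Matrigel replicate 2 or KPC replicate 2 lowered the count to 2576, 1925 and 2324 genes, and leaving out KPC replicate 1 gave 4602. Across all 4 of these fits 668 genes stayed called higher and 728 lower. Below, counts of a gene list in brackets are those obtained without Matrigel 1, Matrigel 2, KPC 1 and KPC 2, in that order. Each list's counts with all libraries are to be read against the 15.3% called higher and 13.7% called lower over all tested genes. In bulk muscle, fewer cells of a type and less RNA per cell cannot be told apart.

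Genes of protein breakdown were called higher in large numbers. Trim63 encodes MuRF1, the ubiquitin ligase of the sarcomere, and lies at chr4:134315120-134329629 (mm10). It measured 260.4 and 161 CPM in the controls and 2646 and 6321 CPM in the KPC libraries, a log2 fold change of 4.41 ± 0.50 (edgeR adjusted p = 0.000115). Fbxo32, which encodes atrogin-1, measured 407 and 211 CPM in the controls and 1916 and 2847 CPM in the KPC libraries (2.95 ± 0.34; adjusted p = 0.00014). The KPC libraries stood above both controls in each gene, and for Trim63 the KPC libraries differed more than 2-fold from each other, so that without KPC 2 its change was 3.59. Of 27 tested ubiquitin ligases and their partners 13 were called higher and 1 lower, against 15.3% and 13.7% of all tested genes (6, 3, 13 and 4 higher with 1 library left out), with a median of 0.51. Fbxo31, another F-box gene, rose by 1.51 ± 0.27, from 135 and 124 to 403 and 335 CPM. Fbxo30, the ligase known as MUSA1, rose by 1.01 ± 0.28, and its call ended without KPC 2 (adjusted p 0.183), Matrigel 2 (0.14) or Matrigel 1 (0.0585). Zfand5, a zinc finger protein that activates the proteasome, measured 321 and 262 CPM in the controls and 551 and 756 CPM in the KPC libraries (1.16 ± 0.23). Its adjusted p was 0.0518 without Matrigel 2.

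The proteasome itself showed smaller changes in many genes. Of its 34 tested genes 24 were called higher (9, 7, 19 and 11), the median was 0.76, and in 32 both KPC libraries lay above both controls. Psmd11, a lid subunit, measured 81.5 and 75.1 CPM in the controls and 191 and 315 CPM in the KPC libraries (1.69 ± 0.30; adjusted p = 0.0014). The ubiquitin receptor Psmd4 measured 140.5 and 132 CPM in the controls and 453 and 362 CPM in the KPC libraries (1.58 ± 0.28). The ATPase Psmc6 measured 82.6 and 86.9 CPM in the controls and 168 and 165 CPM in the KPC libraries (0.97 ± 0.20). This list leaves out the proteasome subunits Psmb8 (-1.04 ± 0.29), Psmb9 (-1.91 ± 0.55) and Psmb10 (-1.02 ± 0.23), which were called lower. They were counted with the antigen presentation genes. Autophagy and lysosome genes were called higher in 19 of 35 cases (10, 7, 18 and 13), with a median of 0.70. Map1lc3b, which encodes the LC3 protein of the autophagosome membrane, stood at 163 and 159 CPM in the controls and 481 and 586 CPM in KPC (1.73 ± 0.17; adjusted p = 5.46e-05). The mitophagy receptor gene Bnip3 stood at 165 and 169 against 678 and 752 CPM (2.10 ± 0.25). Retreg1, a receptor for autophagy of the endoplasmic reticulum, showed the largest change of the list, from 140.0 and 132 to 1337 and 2312 CPM (3.75 ± 0.45). The autophagy adaptor gene Sqstm1 rose by 1.59 ± 0.26. In all 4 of these genes the KPC libraries lay above the controls without overlap.

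Among the 35 lists of gene function, that of glucocorticoid and FoxO targets had the largest share of calls: 26 of 30 were called higher and 1 lower, and the count of higher members stayed at 23, 19, 26 and 22 with 1 library left out. Its median was 2.61. The lists were chosen with earlier results of these data known, so their ranking by share of calls is descriptive only. This list also holds some of the factors themselves beside their targets. Foxo1, a FoxO factor itself, measured 19.1 and 13.5 CPM in the controls and 131 and 245 CPM in the KPC libraries (3.53 ± 0.57; adjusted p = 0.000889). Cdkn1a, which encodes the cell cycle inhibitor p21, rose from 6.61 and 3.92 to 209.9 and 602 CPM (6.26 ± 0.65; adjusted p = 7.54e-05) and was among the 10 largest increases. Its change was 5.26 without KPC 2 and 6.89 without KPC 1. The transcription factor gene Cebpd rose from 23.4 and 16.8 to 356 and 637 CPM (4.63 ± 0.43). Arrdc3, an arrestin family gene, rose by 3.39 ± 0.32, and Gadd45a, a growth arrest gene also induced by denervation, by 2.58 ± 0.35. Bcl6 was the member of this list called lower (-2.73 ± 0.35), and Dusp1 was among those not called (-0.18 ± 0.41). Insulin and IGF1 signalling genes were called higher in 12 of 27 cases (9, 5, 13 and 7) and lower in 1. Pik3r1, the regulatory subunit of PI3 kinase, held 20.6 and 21.1 CPM in the controls and 323 and 458 CPM in KPC (4.23 ± 0.40; adjusted p = 4.50e-05). Eif4ebp1, which encodes a repressor of cap-dependent translation, rose by 3.18 ± 0.35, and the binding protein gene Igfbp3 by 3.84 ± 0.63 (3.20 without KPC 2). The single member called lower was Igfbp5, another IGF binding protein gene, at 328 and 206 against 30.7 and 25.4 CPM (-3.25 ± 0.48). The ligand gene Igf1 was not called, with 7.49 and 10.03 CPM in the controls and 3.02 and 7.74 CPM in the KPC libraries (adjusted p = 0.38).

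FoxO factors are known to bind the letters GTAAACA. The 250 bases before the RefSeq start (build GRCm38.p6, mm10) held them on either strand in 3.17% of 32851 starts, in 2.93% of the 1195 starts of genes called more than 2-fold higher and in 2.03% of the 1380 starts of those called more than 2-fold lower. They are shown for Trim63 (chr4:134314870-134315119, plus strand), where the match starts 194 bases before the start and reads on the minus strand. The other is Txnip (chr3:96557707-96557956, plus strand), which encodes a brake on glucose uptake and has its match 121 bases before the start. Capitals mark the matches, and a match is a string of letters, not a measured binding site.
Trim63: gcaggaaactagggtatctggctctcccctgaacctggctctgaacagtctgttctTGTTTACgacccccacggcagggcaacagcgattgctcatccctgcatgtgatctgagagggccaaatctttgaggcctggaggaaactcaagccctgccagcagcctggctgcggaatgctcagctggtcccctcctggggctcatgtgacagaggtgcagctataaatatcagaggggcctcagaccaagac
Txnip: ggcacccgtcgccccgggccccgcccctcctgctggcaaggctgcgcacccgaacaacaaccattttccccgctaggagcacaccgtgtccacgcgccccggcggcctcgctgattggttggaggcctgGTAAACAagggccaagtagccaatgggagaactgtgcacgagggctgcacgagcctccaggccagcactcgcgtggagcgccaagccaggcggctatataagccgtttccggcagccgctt
Txnip was picked for display after its values were seen and measured 268 and 265 CPM in the controls and 1606 and 1693 CPM in the KPC libraries (2.63 ± 0.42).

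**Figure D1:**
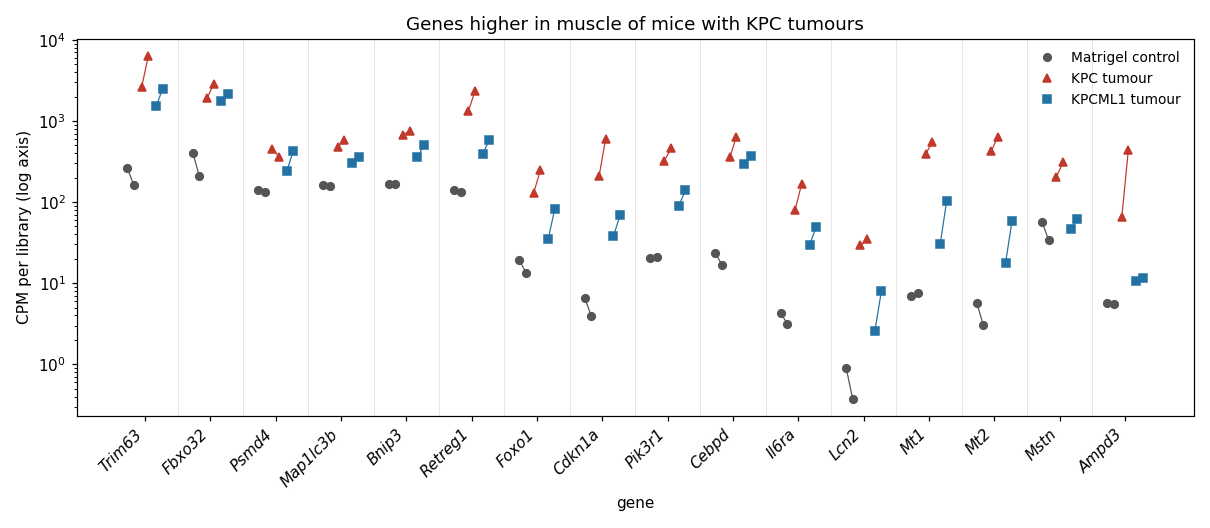
Level of 16 genes in CPM per library (log axis) in the 2 Matrigel, 2 KPC and 2 KPCML1 libraries, with replicate 1 left of replicate 2 and a line joining them. In every gene shown both KPC libraries (red triangles) lie above both Matrigel controls (grey circles), and for Ampd3 the KPC libraries lie far from each other, with replicate 2 the higher.

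Inflammatory pathways did not move alike. Il6ra, the receptor for interleukin-6, measured 4.25 and 3.17 CPM in the controls and 80.01 and 168 CPM in the KPC libraries (5.06 ± 0.54; adjusted p = 9.06e-05). The acute phase gene Lcn2 measured 0.908 and 0.375 CPM in the controls and 29.2 and 34.6 CPM in the KPC libraries (5.62 ± 0.74; adjusted p = 0.000291). Both were low in each control and high in each KPC library, with changes of 4.37 for Il6ra without KPC 2 and 6.36 for Lcn2 without Matrigel 1. Of 25 tested STAT3 and acute phase genes 12 were called higher and 1 lower (8, 7, 17 and 9 higher), with a median of 1.83, and 6 further members did not pass the filter, among them Il6 itself with 3 and 4 fragments in the controls and 9 and 17 in KPC. Stat3, the transcription factor of this pathway, stood at 35.4 and 35.1 CPM against 85.9 and 112 CPM (1.48 ± 0.37), but its call ended without KPC 2 (adjusted p 0.0699), Matrigel 2 (0.0663) or Matrigel 1 (0.0568). Socs3, its feedback inhibitor, was not called at 3.27 and 3.07 CPM in the controls and 12.6 and 9.88 CPM in the KPC libraries (adjusted p = 0.0963). Il4ra, a cytokine receptor gene, and Lrg1, a secreted acute phase gene, rose by 2.13 ± 0.27 and 2.02 ± 0.32.

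NF-kB genes were called in both directions, 9 of 25 higher (4, 3, 7 and 3) and 5 lower (2, 2, 4 and 1), with a median of 0.20. Nfkbia, the inhibitor that NF-kB induces, rose from 23.02 and 26.3 to 69.7 and 93.5 CPM (1.73 ± 0.25; adjusted p = 0.000459), and Eda2r, a receptor of the TNF family that is higher in wasting muscle, from 18.9 and 11.4 to 101 and 45.3 CPM (2.28 ± 0.37; 1.64 without KPC 1). Nfkb2, the precursor of the non-canonical subunit p52, measured 9.18 and 7.85 CPM in the controls and 11.4 and 7.39 CPM in the KPC libraries and was not called (adjusted p = 0.717). Traf3, an inhibitor of the non-canonical pathway, fell from 27.7 and 34.3 CPM in the controls to 16.7 CPM or less in KPC (-0.92 ± 0.22; adjusted p 0.0662 without Matrigel 2). Tnf stood at 3 and 4 fragments in the controls and 1 and 0 in KPC and was not tested.

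Immediate early genes, which respond within minutes to growth and stress signals, were called higher in 10 of 24 cases (8, 8, 10 and 9) with a median of 1.07. Btg2, an antiproliferative gene, rose from 13.8 and 11.1 to 151 and 164 CPM (3.67 ± 0.41) and Maff, a small bZIP factor, from 3.11 and 3.69 to 130.5 and 57.1 CPM (4.79 ± 0.69). The AP-1 gene Junb differed widely between the KPC mice, at 197 and 47.5 CPM against 7.07 and 5.46 CPM in the controls (4.28 ± 0.73; 2.98 without KPC 1 and 4.91 without KPC 2). The change of Maff was 4.13 without KPC 1. Myc, a driver of ribosome synthesis and growth, rose from 3.70 and 2.97 to 13.2 and 13.3 CPM (1.99 ± 0.35; adjusted p = 0.0015). In the integrated stress response, where ATF4 is the central factor, 8 of 22 genes were called higher (6, 3, 8 and 3) and 2 lower. Atf4 rose by 1.53 ± 0.24 and the phosphatase subunit gene Ppp1r15a by 3.48 ± 0.35, from 25.3 and 22.9 to 211 and 328 CPM. The 2 members called lower were Ddit3, which encodes the stress factor CHOP, from 11.4 and 19.8 to 2.62 and 2.35 CPM (-2.65 ± 0.29), and the stress gene Nupr1 (-1.29 ± 0.26). The symbol Ddit3 has more than 1 entry in the annotation. These values are of 1 entry alone, and reads may be divided among the entries.

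Metallothioneins, small proteins that bind zinc and copper and are induced by metals, glucocorticoids and cytokines, include Mt2, the largest increase among the named genes with a mean of at least 5 CPM in the higher group. It measured 5.71 and 3.04 CPM in the controls and 420.4 and 634 CPM in the KPC libraries (6.91 ± 0.98; adjusted p = 0.000409). Mt1 measured 6.97 and 7.64 CPM in the controls and 393 and 551 CPM in the KPC libraries (6.01 ± 0.75; adjusted p = 0.000193). Both KPC libraries lay far above each control in both genes. In the KPCML1 libraries Mt2 stood at 17.6 and 58.9 CPM and Mt1 at 30.2 and 104 CPM, between the 2 groups. Of 24 antioxidant and metallothionein genes 15 were called higher (11, 7, 15 and 10) and 2 lower, with a median of 1.05. Among the others were Gclm, a subunit of the enzyme that starts glutathione synthesis (1.88 ± 0.31; 1.26 without KPC 2), and glutathione reductase, Gsr (1.04 ± 0.17). Doc2b, a calcium sensor of vesicle fusion, stood at 0.162 and 0.512 CPM in the controls and 13.6 and 52.1 CPM in KPC (6.60 ± 1.18; 5.27 without KPC 2 to 7.6 without Matrigel 2, 5.96 without Matrigel 1 and 7.33 without KPC 1). Tmem252 stood at 0.616 and 0.512 CPM in the controls and 33.5 and 42.8 CPM in the KPC libraries (6.07 ± 0.33; adjusted p = 4.22e-07).

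The metal response element, the site of the zinc-sensing factor MTF-1, has the core TGCACNC or TGCGCNC. On either strand these letters occur in 10.4% and 12.5% of the 32851 RefSeq windows of 250 bases before a start, in 12.1% and 20.6% of the 1195 starts of genes called more than 2-fold higher and in 11.4% and 16.9% of the 1380 starts of genes called more than 2-fold lower. The windows of Mt1 (chr8:94178839-94179088, plus strand) and Mt2 (chr8:94172368-94172617, plus strand) hold 1 and 3 matches, shown in capitals because both genes are among the 10 largest increases. None of the 8 matches displayed here and elsewhere overlap. In Mt1 the match starts 23 bases before the start, and in Mt2 the matches start 223, 128 and 50 bases before it, the last on the minus strand.
Mt1: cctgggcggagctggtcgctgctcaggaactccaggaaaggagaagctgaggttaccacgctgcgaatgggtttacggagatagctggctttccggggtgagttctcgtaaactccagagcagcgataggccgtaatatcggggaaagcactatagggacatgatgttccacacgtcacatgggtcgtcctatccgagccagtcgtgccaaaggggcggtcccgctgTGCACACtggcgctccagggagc
Mt2: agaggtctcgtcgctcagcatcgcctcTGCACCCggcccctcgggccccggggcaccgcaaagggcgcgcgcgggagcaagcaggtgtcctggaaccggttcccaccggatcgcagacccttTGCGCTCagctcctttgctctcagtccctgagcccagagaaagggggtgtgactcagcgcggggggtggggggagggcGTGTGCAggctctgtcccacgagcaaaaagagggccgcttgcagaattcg

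Genes of ribosomes were called higher with small changes. Of 79 cytosolic ribosomal protein genes 64 were called higher, with a median of 0.72 and a range of 0.33 to 1.49, and in 77 both KPC libraries lay above both controls. The count depended on single libraries: it was 6 without Matrigel 1, 16 without Matrigel 2, 21 without KPC 1 and 54 without KPC 2. Rpl10a, of the large subunit, measured 111 and 128 CPM in the controls and 227 and 196 CPM in the KPC libraries (0.83 ± 0.17; adjusted p = 0.00304). Rps19, of the small subunit, measured 85.05 and 96.05 CPM in the controls and 195 and 143 CPM in the KPC libraries (0.90 ± 0.19). These genes have many processed copies in the genome, among which the authors' quantification divided reads, so single levels are uncertain. Ribosome biogenesis genes were called higher in 16 of 26 cases (15, 10, 17 and 11), with a median of 0.98. Gnl3, the nucleolar GTPase nucleostemin, rose from 26.6 and 22.8 to 81.9 and 109 CPM (1.95 ± 0.24), and the nucleolar helicase gene Ddx21 from 45.1 and 39.9 to 121 and 184 CPM (1.85 ± 0.24). Among 22 chaperones 5 were called higher and 1 lower (1, 1, 7 and 2 higher), led by Hsp90ab1, the constitutive cytosolic HSP90, at 1003 and 848 against 2814 and 2198 CPM (1.44 ± 0.22). Amino acid transport and breakdown genes were called higher in 8 of 23 cases (4, 3, 9 and 3). Slc43a1, a carrier of branched-chain and other large neutral amino acids, rose from 11.3 and 8.19 to 45.3 and 75.1 CPM (2.63 ± 0.29), and glutamine synthetase, Glul, which makes the glutamine that muscle exports, from 207 and 127 to 888 and 1577 CPM (2.88 ± 0.44).

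**Figure D2:**
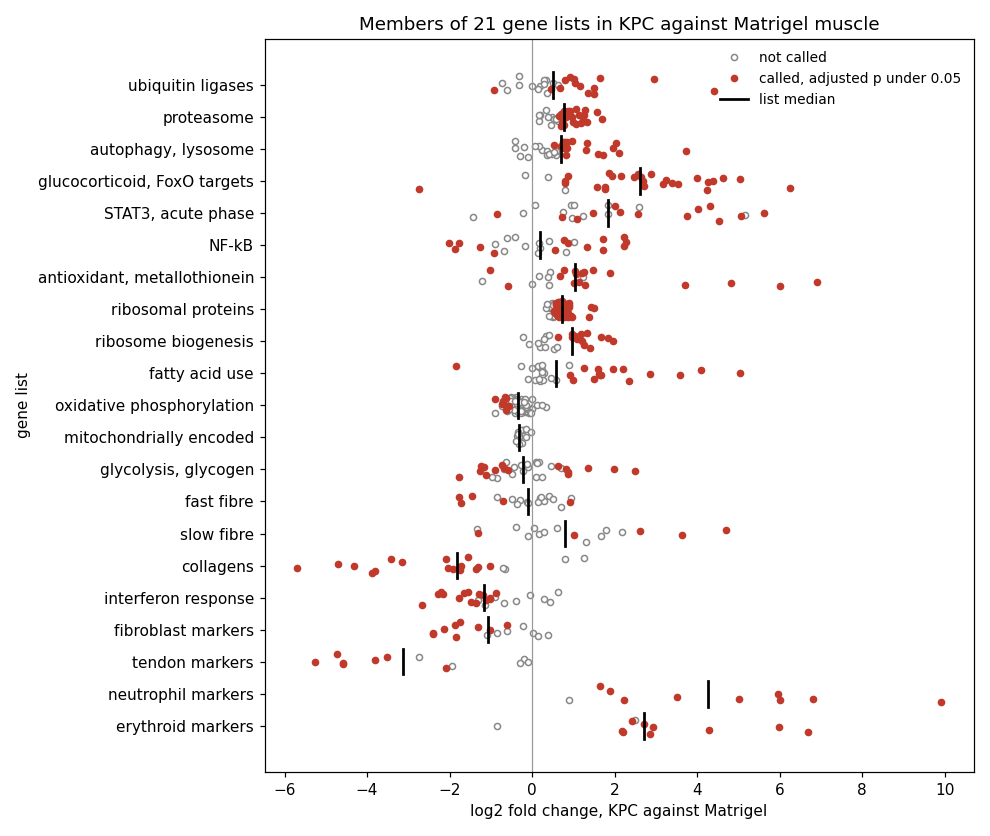
Log2 fold change, KPC against Matrigel, of each tested member of 21 gene lists (x axis), filled red where called at an adjusted p under 0.05 and open where not, with a black bar at the list's median. Glucocorticoid and FoxO targets (median 2.61) lie to the right and collagens (median -1.83) and tendon markers (median -3.14) to the left of 0, while ribosomal protein genes form a narrow group at 0.72.

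Pdk4 encodes the kinase that shuts off pyruvate dehydrogenase, and measured 208 and 141 CPM in the controls and 1643 and 5029 CPM in the KPC libraries (4.26 ± 0.56; adjusted p = 0.000267), with a change of 3.18 without KPC 2 and 4.91 without KPC 1. Fatty acid genes were called higher in 15 of 33 cases and lower in 1 (10, 11, 16 and 6 higher), with a median of 0.58. Plin5, which coats lipid droplets beside mitochondria, rose from 6.91 and 19.2 to 65.9 and 122 CPM (2.85 ± 0.47; 2.26 without Matrigel 1 and 3.74 without Matrigel 2). The mitochondrial thioesterase gene Acot2 differed widely between the KPC mice, at 35.7 and 196 CPM against 8.49 and 10.8 CPM in the controls (3.58 ± 0.66; 1.83 without KPC 2 and 4.40 without KPC 1), and the neighbouring Acot1, similar enough in sequence for reads to be shared, rose by 5.04 ± 0.78 (3.89 without KPC 2 and 5.72 without KPC 1). The single member called lower was the desaturase gene Scd2, at 15.8 and 12.01 against 3.96 and 3.77 CPM (-1.84 ± 0.28). In the list of pyruvate dehydrogenase and the TCA cycle, 2 of 27 genes were called higher and 4 lower (2, 2, 2 and 2 higher, 4, 3, 3 and 3 lower). Over all tested genes 15.3% were called higher and 13.7% lower. Besides Pdk4 the higher member of the list was Idh2, the mitochondrial NADP-linked isocitrate dehydrogenase (1.75 ± 0.30). Among its lower ones were Dlat, the E2 subunit of pyruvate dehydrogenase (-0.98 ± 0.17), and Pdp1, the activating phosphatase of pyruvate dehydrogenase (-2.07 ± 0.39).

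Glycolysis and glycogen genes went both ways, 7 of 33 higher (3, 4, 5 and 4) and 9 lower (4, 3, 3 and 4). Pgam2, the muscle phosphoglycerate mutase, fell from 1660 and 2040 to 581 and 500.4 CPM (-1.77 ± 0.32). Ppp1r3c, which targets a phosphatase to glycogen, rose from 282 and 168 to 1039 and 749 CPM (1.99 ± 0.37), and Gpi1, glucose-6-phosphate isomerase, by 0.87 ± 0.17. Nuclear genes of oxidative phosphorylation had a median of -0.34, and 8 of 60 were called lower, a share near the 13.7% of all tested genes. That count was 11 without Matrigel 1, 2 without KPC 2, 1 without KPC 1 and 0 without Matrigel 2, where 1 had an unadjusted p under 0.05 by edgeR. Cyc1, the cytochrome of complex III, stood at 430.5 and 607 CPM in the controls and 259 and 292 CPM in KPC (-0.91 ± 0.19; adjusted p 0.0518 without Matrigel 2). Of the 13 mitochondrially encoded transcripts 0 were called by edgeR, 0 by DESeq2 and 0 at an unadjusted p under 0.05, with a median of -0.31. Regulators of mitochondria were called in both directions, 4 of 16 higher and 5 lower (1, 1, 5 and 1 higher, 5, 3, 4 and 3 lower). Perm1, a muscle regulator of oxidative genes, fell from 229 and 315 to 83.6 and 70.1 CPM (-1.82 ± 0.31), the nuclear receptor gene Esrra from 141 and 193 to 92.3 and 72.9 CPM (-1.02 ± 0.19) and the mitochondrial deacetylase gene Sirt3 from 18.6 and 29.6 to 8.80 and 8.56 CPM (-1.48 ± 0.21). Ppargc1a, the coactivator PGC-1 alpha, was not called, with 38.9 and 38.01 CPM in the controls and 47.1 and 17.9 CPM in the KPC libraries (adjusted p = 0.826).

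Polyamine, NAD and purine genes held some of the largest single changes. Amd1, the decarboxylase that supplies polyamine synthesis, lies at chr10:40287458-40302186 and measured 585 and 268 CPM in the controls and 6.25 and 11.2 CPM in the KPC libraries (-5.62 ± 0.49; adjusted p = 2.94e-05). Without Matrigel 1 its change was -4.98. In the authors' deposited table its log2 fold change is -3.15. Its near-identical copy Amd2 may share its reads. Smox, which oxidises spermine, fell from 652 and 386 to 73.03 and 112 CPM (-2.49 ± 0.34). Nmrk2, the muscle nicotinamide riboside kinase of NAD synthesis, fell from 129.5 and 112 to 5.94 and 0.888 CPM (-5.12 ± 0.58; adjusted p = 0.000115; -7.02 without KPC 1 and -4.40 without KPC 2). Ampd3, the AMP deaminase that rises in denervated muscle, went up, with 5.77 and 5.49 CPM in the controls and 65.4 and 440.1 CPM in the KPC libraries (5.49 ± 0.82; adjusted p = 0.000564). Its level was far higher in KPC 2 than in KPC 1, and its change was 3.48 without KPC 2 and 6.35 without KPC 1. In the list as a whole 5 of 23 genes were called higher and 4 lower (3, 2, 2 and 4 higher, 4, 4, 5 and 4 lower), with a median of -0.05.

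Clock genes were called in both directions. The circadian clock is a loop in which ARNTL and CLOCK drive their own repressors, and the PAR bZIP factors DBP, HLF and TEF carry its phase to other genes. Dbp measured 136 and 136 CPM in the controls and 4.66 and 5.22 CPM in the KPC libraries (-4.78 ± 0.35; adjusted p = 1.05e-05), and Hlf 21.9 and 21.6 CPM in the controls and 5.00 and 3.87 CPM in the KPC libraries (-2.29 ± 0.21; adjusted p = 4.41e-05). In both genes the replicates of a group lay close together and the groups far apart. Arntl measured 6.87 and 5.22 CPM in the controls and 35.4 and 105 CPM in the KPC libraries (3.54 ± 0.44; adjusted p = 0.000191; 2.49 without KPC 2 and 4.18 without KPC 1). In all 8 of 19 clock genes were called higher and 4 lower (6, 5, 9 and 5 higher, 4, 4, 4 and 5 lower). The hour at which the mice were killed is not given in the labels, so a difference in time of day between the groups cannot be told apart from the tumour.

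The PAR bZIP factors are known to bind the D-box, TTATGNAA, which 3.07% of the 32851 windows hold on either strand, with 2.59% among the higher and 2.10% among the lower starts. The window of the repressor gene Per3 (chr4:151044666-151044915, minus strand) holds it at 205 and 158 bases before the start, in capitals, and is shown because the letters occur at 2 places.
Per3: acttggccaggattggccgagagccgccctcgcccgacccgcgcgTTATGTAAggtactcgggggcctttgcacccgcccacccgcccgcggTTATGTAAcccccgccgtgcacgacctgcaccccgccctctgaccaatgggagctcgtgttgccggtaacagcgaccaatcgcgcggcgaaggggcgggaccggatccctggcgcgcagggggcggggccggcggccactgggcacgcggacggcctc
Per3 was picked after its values were seen and stood at 36.1 and 38.6 CPM in the controls and 13.8 and 6.79 CPM in KPC (-1.86 ± 0.29).

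Contractile genes were called in both directions. Myh4 was not called (0.50 ± 0.42; adjusted p = 0.391), and of 12 markers of skeletal muscle only Des, the intermediate filament desmin, was called, at 3088 and 3158 against 7041 and 4335 CPM (0.86 ± 0.23; adjusted p 0.0881 without Matrigel 1, 0.0852 without Matrigel 2 and 0.109 without KPC 1). Myosin genes are alike in sequence, so reads may be divided among them with error. Among 19 fast fibre genes 1 was called higher and 4 lower (1, 0, 1 and 0 higher, 2, 2, 1 and 2 lower). Casq1, the calcium buffer of the fast sarcoplasmic reticulum, fell from 2270 and 2153 to 641 and 643 CPM (-1.78 ± 0.28; adjusted p = 0.000763), and the higher one was the calcium pump gene Atp2a1 (0.91 ± 0.23; adjusted p 0.119 without Matrigel 2 and 0.0793 without KPC 2). Slow fibre genes were called higher in 4 of 16 cases (0, 3, 0 and 5). Myh7, the slow myosin, stood at 51.7 and 1.81 CPM in the KPC libraries and 0.811 and 1.26 CPM in the controls (4.69 ± 1.45), so the KPC libraries lay far apart. Without KPC 1 its change was 0.87 (adjusted p 0.691), and its call also ended without Matrigel 1 (0.152) or Matrigel 2 (0.129). Without KPC 1, 0 slow fibre genes were called higher by edgeR and 2 had an unadjusted p under 0.05, and without Matrigel 1 these counts were 0 and 5. Among 26 sarcomere and Z-disc genes 7 were called higher and 2 lower (5, 6, 6 and 7 higher). Flnc, filamin C of the Z-disc, rose from 377 and 413 to 1162 and 1705 CPM (1.86 ± 0.30), Xirp1, which gathers at damaged myofibrils, from 42.1 and 54.8 to 157 and 533 CPM (2.83 ± 0.50; 1.64 without KPC 2 and 3.52 without KPC 1), and the thin filament gene Lmod3 fell by 1.25 on the log2 scale.

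Genes of calcium handling and ion channels were called lower in 9 of 27 cases (6, 7, 8 and 5) and higher in 4. Atp1b1, the beta 1 subunit of the sodium pump, fell from 128 and 290.2 to 58.6 and 44.4 CPM (-2.02 ± 0.32; adjusted p = 0.000843; -1.35 without Matrigel 2). The kinase gene Camk2a and the calcium entry channel gene Orai1 fell, with log2 fold changes of -1.29 ± 0.21 and -1.08 ± 0.19. Of 25 genes of the neuromuscular junction and of denervation 7 were called higher and 4 lower (4, 2, 7 and 2 higher). Lrp4, the agrin receptor of the junction, fell from 8.59 and 9.59 to 3.44 and 2.45 CPM (-1.62 ± 0.33), whereas Runx1, which denervation induces, rose by 2.75 ± 0.61 (1.84 with adjusted p 0.07 without KPC 2, 3.35 without KPC 1, and adjusted p 0.064 without Matrigel 2). Myogenic genes were called higher in 7 of 25 cases and lower in 5 (5, 2, 8 and 4 higher). Myod1, the myogenic master factor, fell from 29.1 and 26.3 to 1.98 and 2.88 CPM (-3.52 ± 0.66; adjusted p = 0.00206), and the satellite cell surface gene Sdc4 rose from 15.2 and 12.9 to 74.3 and 69.9 CPM (2.36 ± 0.42). Other satellite cell genes, named after their values were seen, went both ways. Pax7 (-2.24 ± 0.43) and Vcam1 (-1.27 ± 0.36) were called lower and Cdh15 (1.18 ± 0.27) higher. The myogenic factor gene Myog, also on the denervation list and also named after its values were seen, was called higher (3.56 ± 0.86).

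Mstn encodes myostatin, the secreted inhibitor of muscle growth that signals through activin receptors. It measured 56.4 and 34.05 CPM in the controls and 205 and 307 CPM in the KPC libraries (2.50 ± 0.33; adjusted p = 0.000291). Inhbb, the subunit of activin B, measured 0.713 and 1.06 CPM in the controls and 14.7 and 45.3 CPM in the KPC libraries (5.08 ± 0.64; adjusted p = 0.000211; 3.99 without KPC 2 and 5.73 without KPC 1), and the receptor gene Acvr2a 25.5 and 22.4 CPM in the controls and 57.5 and 45.8 CPM in the KPC libraries (1.11 ± 0.19). The groups did not overlap in any of the 3 genes. Of the 24 genes of this pathway 8 were called higher and 4 lower (6, 5, 10 and 5 higher, 3, 4, 5 and 3 lower), with a median of 0.42. Of 18 tested secreted factors of muscle 9 were called lower (6, 5, 5 and 4), 2 were called higher (1, 1, 2 and 1) and 7 were not called, with a median of -1.02. Vegfa, the main angiogenic factor, fell from 283 and 327 to 128 and 130.4 CPM (-1.24 ± 0.17), Apln, which encodes apelin, from 2.01 and 1.84 to 0.183 and 0.142 CPM (-3.52 ± 0.48), and Ostn, which encodes musclin, from 5.93 and 4.57 to 0.579 and 0.355 CPM (-3.47 ± 0.56).

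Most collagens were called lower. Of 20 tested collagen genes 16 were called lower (8, 11, 11 and 9), with a median of -1.83. Their summed level was 1090 and 535 CPM in the controls and 150 and 462 CPM in KPC, where the basement membrane chains Col4a1 and Col4a2, named after their values were seen, had log2 fold changes of 1.25 and 0.79 and were not called. Col1a1, a chain of the most abundant fibrillar collagen, lies at chr11:94936224-94953042 and stood at 265 and 60.3 CPM in the controls and 1.98 and 4.30 CPM in KPC (-5.70 ± 0.88; adjusted p = 0.000669). Matrigel 1 was far above Matrigel 2 there and both KPC libraries lay under either, with a change of -4.30 without Matrigel 1, -6.44 without Matrigel 2 and -6.41 without KPC 2. Col3a1, of the same fibres, was closer between controls, with 134 and 92.2 CPM in the controls and 4.72 and 3.94 CPM in the KPC libraries (-4.70 ± 0.59; adjusted p = 0.000191). All 3 chains of collagen VI, the microfibrils around the fibre, fell, with log2 fold changes of -3.16 ± 0.43 for Col6a1, -3.89 ± 0.54 for Col6a2 and -3.43 ± 0.43 for Col6a3. Other matrix and remodelling genes were called lower in 12 of 33 cases (3, 9, 5 and 5) and higher in 8 (4, 3, 7 and 4). Serpinh1, the collagen chaperone HSP47, fell from 54.3 and 41.6 to 14.8 and 14.99 CPM (-1.69 ± 0.28), while the membrane metalloproteinase gene Mmp14 rose from 5.19 and 4.71 to 9.69 and 16.8 CPM (1.42 ± 0.27) and the aggrecanase gene Adamts4 from 0.227 and 0.0341 to 2.83 and 2.66 CPM (4.33 ± 0.77; 6.12 without Matrigel 1 and 3.53 without Matrigel 2).

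Fibroblast and fibro-adipogenic progenitor markers were called lower in 9 of 16 cases (5, 6, 6 and 5), with a median of -1.06, and their summed level was 972 and 652 CPM in the controls and 689 and 845 CPM in KPC, with overlapping groups. Hic1, a transcription factor of these progenitors, fell from 7.42 and 8.32 to 1.31 and 1.71 CPM (-2.38 ± 0.39). Tendon markers were called lower in 7 of 12 cases (2, 7, 5 and 3), with a median of -3.14. Their summed level was 501 and 195 CPM in the controls and 88.2 and 86.8 CPM in KPC, so the controls themselves differed more than 2-fold. Tnmd, a tendon membrane protein gene, stood at 12.1 and 3.14 CPM against 0.274 and 0.355 CPM (-4.58 ± 1.00), Cilp2, of the cartilage matrix, at 14.7 and 3.51 against 0.487 and 0.178 CPM (-4.73 ± 0.94), and Chad, a collagen-binding protein gene, at 26.9 and 2.80 against 0.244 and 0.533 CPM (-5.26 ± 1.19; adjusted p 0.0933 without Matrigel 1). Without Matrigel 1 the changes were -3.35 for Tnmd, -3.40 for Cilp2 and -2.89 for Chad, and without Matrigel 2 they were -5.29, -5.46 and -6.15. Without KPC 1 that of Cilp2 was -5.59, and without KPC 2 that of Chad was -5.96. The part of tendon in the decrease of collagens was not tested. Nrep, a gene of regenerating and matrix-making cells, fell from 161 and 120.3 to 3.44 and 3.48 CPM (-5.34 ± 0.59). The antisense gene Irx3os fell from 6.10 and 6.45 to 0 and 0.142 CPM (-6.47 ± 0.64; -5.36 without KPC 1). KPC 1 had 0 fragments of it. The quantification's strand setting was not named in the labels, so its reads and those of Irx3 cannot be told apart.

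Most interferon-stimulated genes were called lower. Of 24 tested 15 were called lower and 0 higher (11, 10, 11 and 9 lower; 0 higher also by DESeq2 and at an unadjusted p under 0.05 by edgeR), the median was -1.17, and in 20 both KPC libraries lay under both controls. Irf1, the transcription factor of the interferon gamma response, measured 7.68 and 7.23 CPM in the controls and 2.50 and 2.27 CPM in the KPC libraries (-1.64 ± 0.28; adjusted p = 0.00108). Oasl2, an antiviral gene, measured 2.14 and 2.05 CPM in the controls and 0.426 and 0.426 CPM in the KPC libraries (-2.28 ± 0.37; adjusted p = 0.000855), and Ifit3, another, 4.86 and 5.36 CPM in the controls and 0.701 and 1.60 CPM in the KPC libraries (-2.16 ± 0.43; -2.92 without KPC 2). The groups did not overlap in any of the 3 genes. The 3 members with a log2 fold change above 0, Isg15 (0.62), Rsad2 (0.44) and Mx2 (0.29), were not called. Of 21 tested chemokine genes and receptors 4 were called higher (3, 2, 4 and 3) and 3 lower (3, 3, 3 and 2), with a median of 0.11. The interferon-inducible chemokine gene Cxcl9 fell from 0.875 and 1.47 to 0.183 and 0.107 CPM (-2.96 ± 0.62), whereas Cxcl10, also interferon-inducible and named after its values were seen, had a log2 fold change of 1.14 ± 1.16 and was not called. The stromal chemokine gene Cxcl12 fell from 65.95 and 61.2 to 19.7 and 25.04 CPM (-1.51 ± 0.26), and the B cell chemokine gene Cxcl13 rose from 0.162 and 0.137 to 3.81 and 3.41 CPM (4.55 ± 0.51). Antigen presentation and complement genes were called higher in 3 of 30 cases (2, 0, 2 and 2) and lower in 4 (2, 0, 3 and 1). Without Matrigel 2 edgeR called 0 of them in either direction, and 2 higher and 4 lower had an unadjusted p under 0.05. T, B and NK cell markers could not be tested, since none of 11 passed the filter.

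**Figure D3:**
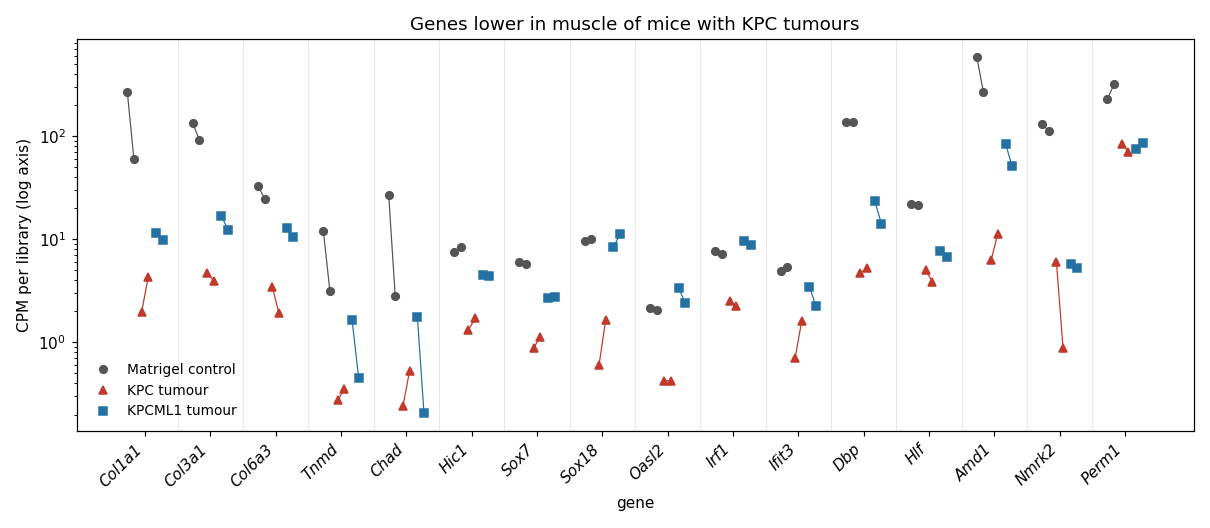
Level of 16 genes in CPM per library (log axis) in the 2 Matrigel, 2 KPC and 2 KPCML1 libraries, with replicate 1 left of replicate 2 and a line joining them. Both KPC libraries lie under both controls in each gene, and in Sox18, Oasl2 and Irf1 the KPCML1 libraries (blue squares) stay near the controls.

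Transcripts of blood cells were higher. Of 14 neutrophil markers 10 passed the filter and 9 of these were called higher (5, 4, 7 and 6), and the other 4 (Ly6g, Camp, Elane, Mpo) had 0 fragments in both controls and 0 to 41 in a KPC library. The summed level of the 10 was 3.79 and 2.42 CPM in the controls and 74.9 and 56.0 CPM in KPC. A marker with few fragments in the controls could pass the filter only through libraries where it was higher. The count of neutrophil markers called higher therefore follows in part from the filter. S100a9, a subunit of calprotectin, measured 0.551 and 0.239 CPM in the controls and 31.2 and 18.9 CPM in the KPC libraries (5.96 ± 0.50; adjusted p = 2.35e-05; 6.64 without Matrigel 1), and its partner S100a8 0.421 and 0.205 CPM in the controls and 24.2 and 17.1 CPM in the KPC libraries (6.02 ± 1.00). Retnlg had 3 fragments over both controls and 375 over both KPC libraries, a ratio of 112.0 (95% interval 38.0 to 545.0 for counting error). Ngp, a granule protein gene, had 0 fragments in the controls and 265 in KPC, which makes it at least 79.1-fold higher at a floor of 3 fragments over the group. Erythroid markers were called higher in 9 of 11 cases (3, 2, 9 and 4), with summed levels of 456 and 501 CPM in the controls and 2160 and 2370 CPM in KPC. Slc4a1, the anion exchanger of the red cell, rose from 0.0649 and 0.102 to 4.97 and 6.11 CPM (5.98 ± 0.88). The filter bears in the same way on erythroid markers with few fragments in the controls. How much blood each muscle held was not measured, and its part in these changes was not tested.

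Other cell types gave mixed counts, where 15.3% of all tested genes were called higher and 13.7% lower. Of 16 macrophage markers 10 had a log2 fold change above 0. Adgre1 (-0.42), Cd68 (-0.08) and Csf1r (-0.24), named after their values were seen, were below 0 and not called. Macrophage markers were called higher in 2 of 16 cases (2, 1, 2 and 1), and Cd14, a receptor for bacterial lipopolysaccharide, rose from 1.20 and 0.921 to 5.42 and 6.22 CPM (2.45 ± 0.30; adjusted p = 0.000175). Endothelial markers were called in both directions, 2 of 15 higher (1, 1, 6 and 1) and 3 lower (3, 3, 3 and 4). The endothelial transcription factor genes Sox18 and Sox7 fell, Sox18 from 9.60 and 9.93 to 0.609 and 1.63 CPM (-3.13 ± 0.45; adjusted p = 0.000423; -2.52 without KPC 1 and -4.05 without KPC 2) and Sox7 from 6.06 and 5.70 to 0.883 and 1.14 CPM (-2.54 ± 0.28). Sox17, the other Sox gene of this list, named after its values were seen, was called higher (1.28 ± 0.38). The apelin receptor gene Aplnr fell from 6.22 and 6.07 to 0.335 and 0.249 CPM (-4.37 ± 0.86). The tight junction gene Cldn5 rose from 5.22 and 8.05 to 60.2 and 94.1 CPM (3.54 ± 0.66). Among 11 markers of pericytes and smooth muscle 3 were called lower (1, 1, 2 and 1), with Cspg4, the pericyte proteoglycan NG2, at 5.19 and 6.58 against 1.55 and 1.14 CPM (-2.12 ± 0.36). Adipocyte markers were called higher in 4 of 11 cases, and in 0 cases by edgeR without Matrigel 1 or without Matrigel 2, where 5 and 4 had an unadjusted p under 0.05. Of these 11 markers 10 had a log2 fold change above 0. Their summed level was lower in KPC, at 2220 and 2110 CPM in the controls and 1450 and 1730 CPM in KPC. The only member below 0 was Car3 (-0.68 ± 0.55), which was not called, so the lower sum does not describe the other markers. Of the epithelial and pancreatic markers 6 of 13 passed the filter, with a summed level of 1.72 and 0.955 CPM in the controls and 1.13 and 1.31 CPM in KPC. By edgeR 0 were called, by DESeq2 0, and 0 had an unadjusted p under 0.05.

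KPC was next set against KPCML1, the other orthotopic tumour, which differs in both the line and the number of cells, so the effects of the 2 cannot be told apart. Of 16089 genes 964 were called (5.99%), 473 higher in KPC (2.94%) and 491 lower (3.05%). The count was 19 without KPCML1 1, 80 without KPCML1 2, 95 without KPC 2 and 1983 without KPC 1, and 16 genes were called in all 4 cases. The genes of smallest p were mostly lower in KPC. Trim47, a ubiquitin ligase gene, stood at 1.77 and 1.81 CPM in KPC, 9.20 and 7.71 CPM in KPCML1 and 8.98 and 8.97 CPM in the controls (difference -2.24 ± 0.23; adjusted p = 0.00105). Ushbp1 stood at 8.84 and 8.13 CPM in KPC, 27.9 and 31.8 CPM in KPCML1 and 26.9 and 34.1 CPM in the controls (-1.81 ± 0.20; adjusted p = 0.00105). In both genes the KPCML1 libraries overlapped the controls and the KPC libraries did not. Rsrp1 measured 216 and 179 CPM in KPC, under the controls at 364 and 345 CPM, and 598 and 492 CPM in KPCML1, above them (-1.46 ± 0.16). Cpne1, a copine gene of calcium-dependent membrane binding, differed by -1.75 ± 0.22, and Fmo1, a flavin monooxygenase gene, by -1.31 ± 0.17 (adjusted p 0.0512 without KPCML1 1). Tmcc3 was higher, at 119 and 129 CPM in KPC, 48.4 and 48.8 CPM in KPCML1 and 34.2 and 26.7 CPM in the controls (1.35 ± 0.16; adjusted p = 0.00317).

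Several genes described above differed between the orthotopic tumours. Mstn stood at 46.5 and 61.8 CPM in KPCML1, near the controls, against 205 and 307 CPM in KPC (difference 2.24 ± 0.33; adjusted p = 0.00562). Amd1 was at 84.2 and 51.1 CPM in KPCML1 (difference -2.96 ± 0.44; adjusted p = 0.00562), and Ampd3 at 10.6 and 11.7 CPM (4.50 ± 0.78; adjusted p = 0.0106). In these 3 genes the KPC libraries lay beyond both other groups, but without KPCML1 1 the adjusted p was 0.0815 for Mstn, 0.0668 for Amd1 and 0.109 for Ampd3, which was called in 1 of the 4 fits. Trim63 and Fbxo32 did not pass the test of the difference, at 1513 and 2502 CPM and 1749 and 2124 CPM in KPCML1 (1.16 ± 0.44, adjusted p = 0.124, and 0.30 ± 0.32, adjusted p = 0.617). Interferon-stimulated genes were called lower in KPC than in KPCML1 in 7 of 24 cases, against 3.05% of all tested genes, with a median of -0.98. That count was 1 without KPCML1 1, 3 without KPCML1 2, 7 without KPC 1 and 2 without KPC 2. Irf1 stood at 9.61 and 8.87 CPM in KPCML1 (difference -1.95 ± 0.28; adjusted p = 0.00562), Oasl2 at 3.33 and 2.40 CPM (-2.74 ± 0.37; adjusted p = 0.00402) and Sox18 at 8.33 and 11.2 CPM (-3.13 ± 0.45; adjusted p = 0.00562), while Irf1 had an adjusted p of 0.0509 without KPCML1 1. Over all tested genes 2.94% were called higher in KPC than in KPCML1 and 3.05% lower. Calls were spread over many lists. For example, 5 of 30 glucocorticoid and FoxO genes and 4 of 24 immediate early genes were called higher. Of 16 fibroblast markers 4 were called lower. Of 19 clock genes 5 were called higher in KPC and 2 lower, and of 24 myostatin and activin genes 5 higher and 1 lower. Of 20 collagens 4 were called lower. Without KPCML1 1 edgeR called 0 members of these 3 lists, with 7 and 3, 7 and 1, and 0 and 6 members higher and lower at an unadjusted p under 0.05. Without KPC 2 it called 1 myostatin and activin gene higher and 0 other members, with 6 and 4, 5 and 2, and 0 and 11 at an unadjusted p under 0.05.

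The KPC effect was last compared with the mean effect of LLC, C26 and KPP, each against its own controls. The difference was called in 105 of 16089 genes (0.653%), 62 where the KPC effect was higher (0.385%) and 43 where it was lower (0.267%). No gene was called in all of the 16 fits that leave out 1 library of these groups, and the count ranged from 1, without either Matrigel control, to 1015 without KPC 1. Nfkb2 was not called between KPC and Matrigel (0.15 ± 0.27), and its log2 fold change was 0.16 in KPCML1, 3.86 in LLC, 2.82 in C26 and 1.57 in KPP. The KPC effect minus the mean of the last 3 was -2.60 ± 0.31 (adjusted p = 0.00712), and the difference stayed called in 15 of the 16 fits (adjusted p 0.00154 to 0.0653, the highest without Matrigel 1). Tmcc3 rose in KPC by 2.02 ± 0.17 against 0.04 in LLC, -0.01 in C26 and 0.99 in KPP (difference 1.68 ± 0.19; adjusted p = 0.00642), also called in 15 fits (adjusted p 0.0731 without Matrigel 2). The scavenging chemokine receptor gene Ackr3 rose by 1.72 ± 0.21, against -0.31, -0.11 and 0.29 in the same order (difference 1.77 ± 0.24; adjusted p = 0.0127). Cdc42ep3, an effector of the GTPase CDC42, rose by 0.92 ± 0.18, where the others were at -0.50, -0.65 and -0.73 (difference 1.54 ± 0.21). Elmsan1, of a histone deacetylase complex, rose by 3.17 ± 0.33 against 0.73, 0.19 and 0.87 (difference 2.58 ± 0.37). Slc37a4, the glucose-6-phosphate carrier of the endoplasmic reticulum, had a smaller decrease in KPC, with -1.08 against -1.92, -2.87 and -2.56 (difference 1.37 ± 0.19; adjusted p = 0.0127). The rise of Pdk4 was shared by KPCML1, at 3.61 ± 0.54 against the same Matrigel controls. KPC and KPCML1 did not pass edgeR's test of the difference in Pdk4 (0.65 ± 0.49; adjusted p = 0.457). Pdk4 rose by 4.26 against 1.25, 2.59 and 0.17 (difference 2.92 ± 0.58; adjusted p = 0.0404), called in 6 of the 16 fits. The calls of Ackr3, Cdc42ep3, Elmsan1 and Slc37a4 ended without Matrigel 1 (adjusted p 0.133 in each) or Matrigel 2 (0.101 to 0.11), and those of the first 3 also without KPC 2 (0.0592 to 0.0734). Dbp was at -4.78 against 0.19, -3.47 and -4.24 (difference -2.28 ± 0.36; adjusted p = 0.0186; called in 10 of the 16 fits), and LLC alone of the 3 was not below 0.

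**Figure D4:**
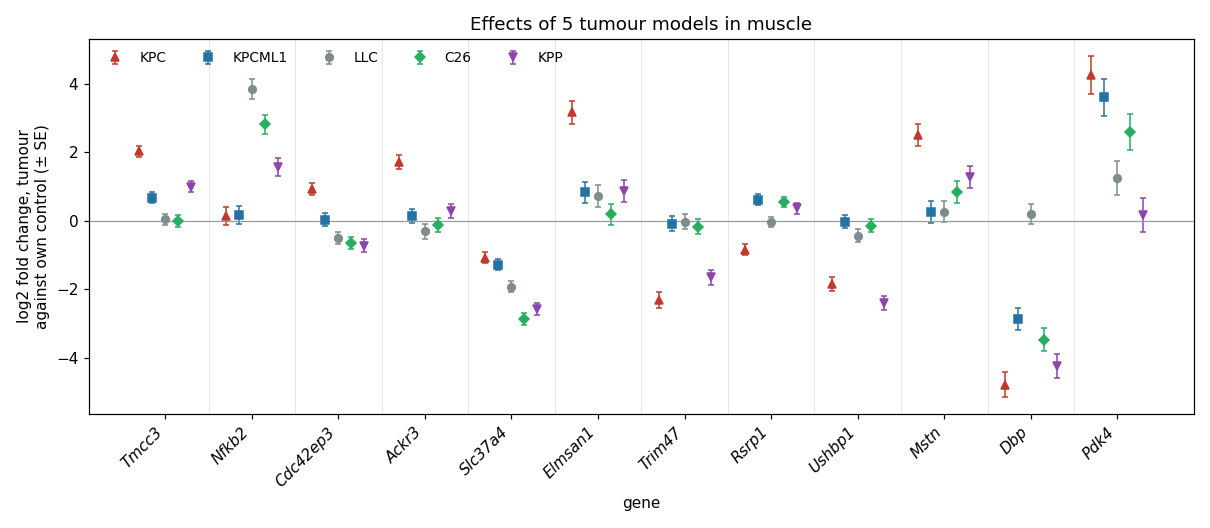
Log2 fold change of 12 genes, tumour against own control, in 5 tumour models, with standard errors as bars. KPC (red triangles) stands apart from LLC, C26 and KPP in Nfkb2, where it lies near 0 at 0.15 and the others between 1.57 and 3.86, and KPC and KPCML1 share their 2 Matrigel controls.

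The authors' deposited table of the comparison of KPC with Matrigel lists 24569 genes, of which 13483 have an adjusted p and 2930 lie under 0.05, with 1746 higher and 1184 lower. Of 13787 tested genes that could be joined to it by symbol, 2638 were called in both, and 2636 of these had the same sign. Of 199 named genes found in it 9 differed by over 1.5 times in fold change, with Amd1 furthest apart. Among those described above, the authors' deposited table gives log2 fold changes of -4.05 for Cxcl9, 5.48 for Myh7, 3.53 for Runx1, 4.43 for Acot1 and -0.79 for Cpne1.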

How the data were processed

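Poly(A) RNA libraries were made with a directional kit, per the labels. The submitters' processing notes list bcl2fastq (2.20), FastQC, Salmon, DESeq2 and the build mm10. The deposited library files hold estimated counts per transcript, not normalised by the authors, with TPM and effective length, which the authors deposited beside them and which served only for length-scaled counts. The authors' deposited table, whose tool is not named, gives log2 fold changes and adjusted p-values. No source used here names the strand setting or Salmon's version.

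Transcripts were matched to GENCODE M21 (139881 of 140825; unmatched 0.51 to 0.68% of fragments in the orthotopic groups), and each gene's estimated counts were added up, then rounded. Genes were filtered with filterByExpr, scaled by TMM and fitted with edgeR (4.0.16; 9 groups, 9 residual degrees of freedom) in R 4.3.3. P-values were adjusted by Benjamini and Hochberg over 16089 genes. Named are 20 panel genes, the 10 largest increases and decreases with a mean of at least 5 CPM in the higher group and no overlap (predicted genes, pseudogenes and receptor segments left out), up to 4 members of smallest p per list, and 6 genes per other comparison. Some genes that the rule names are not reported here. The members and all 47 lists were chosen with earlier results of these data known. Alternatives were other size factors, DESeq2 (1.42.0), no filter, a fold threshold of 2, length-scaled counts, a replicate block, the 2 groups alone and leaving out each library, whose partner is then assumed to vary like the other groups. The method was also run on simulated counts with the same spread in every gene and library. That run does not show how calls behave where libraries differ in spread. Floors and 95% intervals cover counting error only. Promoter sequences are from RefSeq (GRCm38.p6), where 11340 of the 16089 tested genes matched by symbol. Tables and plots used Python 3.11.15 with pandas 2.3.3 and matplotlib 3.10.9.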

Additional observations from a re-analysis of the deposited data

Results flagged for a closer look

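Muscle effects that differed between tumour models by a test of the difference itself were noted for a closer look. Between KPC and KPCML1 964 genes passed edgeR's quasi-likelihood test. The 6 of smallest p were Trim47 (log2 difference -2.24), Rsrp1 (-1.46), Ushbp1 (-1.81), Cpne1 (-1.75) and Fmo1 (-1.31), lower in KPC, and Tmcc3 (1.35), higher. The first 4 and Tmcc3 kept their call in all 4 fits that omit 1 library, and Fmo1 in 3 of 4.

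Between the KPC effect and the mean effect of LLC, C26 and KPP 105 genes passed. The 6 of smallest p were Tmcc3 (1.68), Cdc42ep3 (1.54), Ackr3 (1.77), Slc37a4 (1.37) and Elmsan1 (2.58), where the KPC effect was higher, and Nfkb2 (-2.60), where it was lower. These 6 kept their call in 13 to 15 of the 16 fits that leave out 1 library.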

How the results depend on the processing

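With 2 libraries per group, single libraries moved the counts. Leaving out 1 library gave 1925 to 4602 genes called between KPC and Matrigel (849 to 2677 higher, 1076 to 1925 lower), 19 to 1983 between KPC and KPCML1 (3 to 1189 higher, 16 to 794 lower), and 1 to 1015 for the KPC effect against LLC, C26 and KPP (0 to 634 higher, 0 to 381 lower). In the fits with 0 on 1 side, without Matrigel 2 (higher) and Matrigel 1 (lower), edgeR gave 788 and 934 genes at an unadjusted p under 0.05.

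A fold threshold of 2 left 573 genes between KPC and Matrigel (312 higher, 261 lower), 3 between KPC and KPCML1 (1 higher, 2 lower) and 0 against the other models (0 higher, 0 lower; 330 and 273 at an unadjusted p under 0.05 by edgeR, and without the threshold 522 by DESeq2). The libraries of the 2 groups alone gave 2587 genes (1419 higher, 1168 lower) against Matrigel and 14 (11 higher, 3 lower) against KPCML1. DESeq2 called 1720 genes between KPC and KPCML1 (1053 higher) and 522 against the other models (323 higher, 199 lower). With no filter on low counts these were 1983 (1133 higher, 850 lower) and 1001 (639 higher, 362 lower), and with length-scaled counts 620 (270 lower) and 57 (36 higher, 21 lower). The causes were not tested.

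Among 205 named genes 5 values, none of a called gene, changed sign: Nfkb2 (-0.14 without KPC 1 and -0.00 without Matrigel 2, up to 0.37), Ppargc1a (0.24 without KPC 2, down to -1.04), Krt18 (0.40 without Matrigel 1, down to -0.79) and Muc1 (-0.55 without Matrigel 2, up to 1.31). Of the 183 called named genes, the fold moved by over 1.5 times in 13 without Matrigel 1, 10 without Matrigel 2, 23 without KPC 1 and 26 without KPC 2. Deviations of same-numbered libraries correlated across genes at -0.05 between KPC and Matrigel. With 2 libraries per group this value cannot show whether replicate numbers pair the libraries. With the replicate block 4549, 959 and 112 genes were called in the 3 comparisons.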

Other observations

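Of 8 keratins of stratified epithelium, looked at after the values were seen, 3 were called higher in KPC (Krt14, Krt17, Krt6a) and 5 were not called. Over all tested genes 15.3% were called higher. Krt14, a basal layer keratin, stood at 0.0324 and 0.137 CPM in the controls, 7.04 and 6.50 CPM in KPC and 0.146 and 0.787 CPM in KPCML1, with a log2 fold change of 6.27 ± 1.94 (edgeR adjusted p = 0.0268). Krt17 stood at 0.13 and 0.0682 CPM against 5.18 and 3.80 CPM (5.43 ± 1.75), and Krt6a at 0.0324 and 0.0682 CPM against 3.02 and 3.80 CPM (5.97 ± 1.96). Krt5, the partner of Krt14, measured 0 and 0.0341 CPM in the controls and 1.74 and 1.53 CPM in KPC and was not called (adjusted p = 0.106). The calls of Krt14, Krt17 and Krt6a ended with any of the 4 libraries left out (adjusted p 0.0526 to 0.169). Krt10, of the upper layers, measured 1.14 and 2.29 CPM in the controls and 2.50 and 0.959 CPM in KPC, with overlapping groups. Krt6b had 0 fragments in both controls and 55 and 30 in KPC (adjusted p = 0.0535), Krt15 had 0 in both controls and 11 and 0 in KPC, and Krt1 had 0 in all 4 libraries.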
